A study of Rattus norvegicus with 2 samples.

Results

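Single probes with a low 8-oxoG level on both arrays were examined in normal rat kidney. The 8-oxoG level of a probe was log2 of the processed signal of immunoprecipitated DNA (IP) over that of input DNA, averaged over the spots of the probe without controls and without any spot that carried an outlier flag, minus the median of the array. A probe was taken as low when it lay on chromosomes 1 to 20 of the rat assembly rn4, had a level below -1.5 on both arrays, and gave IP and input signals well above background on each array. A level of -1.5 is an IP to input ratio 2.83-fold below the median of the array. Of the 235872 probes kept, 219941 were on these chromosomes, 173675 of them were well above background throughout and are called eligible, and 1794 were low. Because the members were chosen by their levels on both arrays, these levels are given as a description and without a test. Each probe reports the restriction fragment that covers its own position. A low level is a position where IP returned less DNA relative to input than it did at the typical probe of the array. It is not the absence of 8-oxoG.

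The samples were kidneys of 2 untreated male rats of the Wistar strain (written Wister in the labels), 5 weeks old, with 1 array per rat. Both arrays belong to a single group, normal kidney, so there was no contrast between conditions. DNA was extracted under argon with 0.1 mM Desferal, which limits oxidation during handling, and was cut with the restriction enzyme BmgT120I. Fragments bound by the 8-oxoG antibody N45.1 were labelled with Cy5 and input fragments with Cy3, and since the dyes were not swapped, an effect of the dye and an effect of the IP cannot be told apart. The study asked how 8-oxoG is distributed along the chromosomes, and the low probes are the low extreme of that distribution at the scale of the single probe. Whole kidney is a mixture of tubular, glomerular, vascular and stromal cells, so each level is an average over cell types.

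8-Oxoguanine arises when reactive oxygen species oxidise guanine in DNA or in the nucleotide pool. It can pair with adenine during replication and so lead to G to T changes. The glycosylase OGG1 removes it from DNA opposite cytosine and starts base excision repair, MUTYH removes the adenine that was inserted opposite to it, and the hydrolase encoded by Nudt1 clears the oxidised nucleotide before it is incorporated.

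The arrays were similar in brightness. The median processed signal was 89.3 for input and 90.6 for IP on replicate 1, while replicate 2 had medians of 70.3 and 70.5. On replicate 1, 86.9% of the input signals and 86.4% of the IP signals were well above background, and on replicate 2 the percentages were 85.3% and 83.1%. Replicate 2 was dimmer, and its levels spread more widely.

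The share of eligible probes below -1.5 was 5.22% on replicate 1 (9064 probes) and 9.18% on replicate 2 (15946 probes). On both arrays it was 1.03%, which are the 1794 low probes themselves. The mirror set, with a level above 1.5 on both arrays and the same requirement on the signals, held 2556 probes, or 1.47% of the eligible probes.

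**Figure D1:**
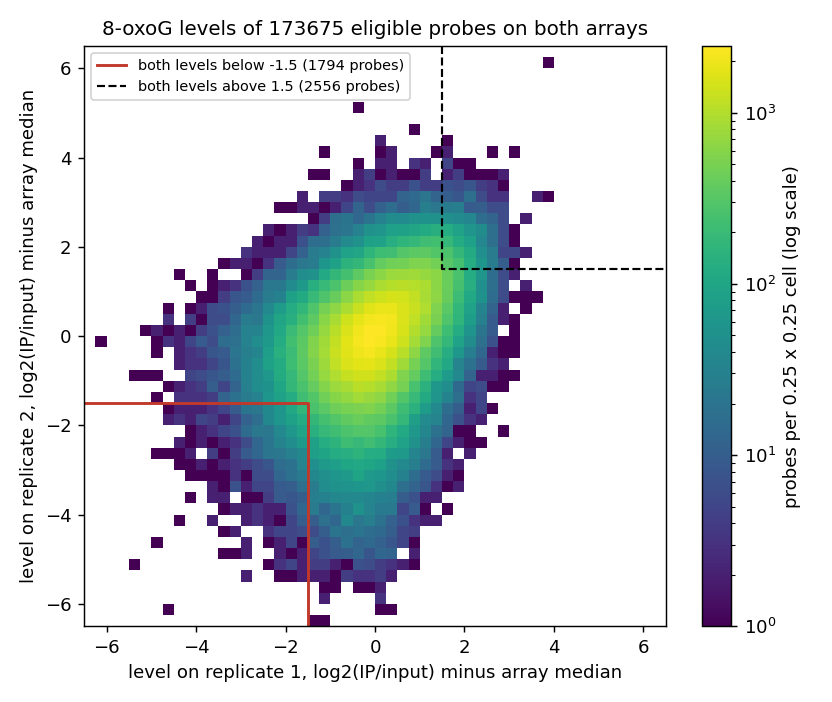
8-oxoG levels of the 173675 eligible probes on replicate 1 (horizontal axis) and replicate 2 (vertical axis), as log2(IP/input) minus the median of the array; the colour gives the number of probes per cell of 0.25 by 0.25 on a log scale. The red lines bound the 1794 low probes and the dashed lines the 2556 high probes, and most probes below -1.5 on one array lie above it on the other.

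Among the low probes, the level on replicate 1 had a mean of -2.09 with an SD over probes of 0.58, a median of -1.92 and quartiles of -2.33 and -1.68. On replicate 2 the mean was -2.32 with an SD over probes of 0.77, the median -2.08 and the quartiles -2.64 and -1.76. The lowest single level was -5.37 on replicate 1 and -6.21 on replicate 2. A small tail of members thus went much lower than the rest. By the mean of both arrays, 752 members (41.9%) had a level between -2 and -1.5, 897 (50%) between -3 and -2, 137 (7.64%) between -4 and -3, and 8 (0.446%) below -4. On both arrays at once, 463 were below -2, 36 below -3 and 4 below -4.

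The rule bears on how these levels can be read, since a probe near the threshold enters or leaves the set by a small step. At least 1 of the levels was within 0.25 of the threshold for 876 of the members. The error of a level was computed from the errors that the scanner software gives for each channel, and averaged over spots. Its median was 0.22 on each array for the low probes and 0.21 for the eligible probes. By this measure, 550 low probes were below the threshold by more than 2 such errors on both arrays. Just inside the threshold were A_86_P00768231 on chromosome 2, with levels of -1.50005 and -1.63 on replicates 1 and 2, A_86_P03322359 on chromosome 7, with -2.12 and -1.50013, and A_86_P03618929 on the same chromosome, with -2.75 and -1.50047. Just outside were A_86_P04048077 on chromosome 9, with levels of -2.33 and -1.49981, A_86_P02791102 on chromosome 5, with -1.49971 and -2.61, and A_86_P04343312 on chromosome 10, with -1.49947 and -2.66. The levels ran on without a break across the threshold, and the set is one end of a continuous range.

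The difference between the arrays was of moderate size for most members. Its median absolute value was 0.45 for the low probes, against 0.68 for all eligible probes, but the rule holds both levels below the same value and so narrows it. The lower level was on replicate 2 for 1053 members and on replicate 1 for 741.

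The low level came with a bright input as well as with a dim IP. The median input signal of the low probes was 240 on replicate 1 and 203 on replicate 2, against 132 and 107 for the eligible probes. Their median IP signal was 55.3 and 38.8, against 131 and 106. The input is the denominator of the level and the IP its numerator, so that both differences follow in part from the rule. No low probe was saturated in either channel. The weakest IP signals counted as well above background were 9.21 on replicate 1 and 8.44 on replicate 2, and 129 members had an IP signal under 20 on both arrays, close to that limit. At the other end, 650 members had an IP signal of at least 50 on both arrays and 242 had at least 100. Their IP signals lay further from that limit. Whether the low level of these members depended on the background was not tested.

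The requirements on the signals also removed low positions. With none on either channel, 3151 probes of chromosomes 1 to 20 were below -1.5 on both arrays. Of these, 1213 had an input well above background on both arrays but an IP signal that was not well above background on at least 1 of them, and 144 had an input that was not well above background on at least 1. Without the requirement on IP alone, 3007 probes were low. Where the IP signal was not well above background the level is less certain, and the 1213 probes were not counted among the low probes.

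The 12 members with the lowest mean level had means between -5.42 and -3.86. The lowest was A_86_P00396812 at chr1:155937218-155937277, with levels of -4.63 on replicate 1 and -6.21 on replicate 2. Its input signal was 945 and 949, among the brighter ones, and its IP signal was 38.4 and 13.4. Next was A_86_P04489012 at chr10:58759595-58759654, with levels of -5.37 and -5.24, input signals of 810 and 668, and IP signals of 19.8 and 18.5. In this probe the arrays differed by less than the error of a single level, computed as above, which was 0.27 on each array. A_86_P00788272 at chr2:31977691-31977750 had levels of -4.82 and -4.65, with input signals of 282 and 222, and A_86_P03561059 at chr7:121851969-121852028 had -4.29 and -4.14. The IP signal of A_86_P00788272 was 10.04 on replicate 1 and 9.23 on replicate 2, at the edge of what counted as well above background, so its level is less certain than those of the brighter members. These 4 probes are the members below -4 on both arrays.

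The next members lay between -4.10 and -3.86 in their means. A_86_P01363740 at chr2:251882892-251882951 had levels of -3.37 on replicate 1 and -4.82 on replicate 2. A_86_P03157818 at chr6:122392298-122392357 had -2.91 and -5.28, and A_86_P06130336 at chr16:82564629-82564688 had -2.82 and -5.30. All of these were lower on replicate 2 by more than 1 log2 unit. The same held for A_86_P02487214 at chr5:50029982-50030041, with -3.03 and -4.99, for A_86_P00232713 at chr1:94248353-94248412, with -2.96 and -4.85, and for A_86_P05529523 at chr14:81793159-81793218, with -2.95 and -4.77. A_86_P01317749 at chr2:236354838-236354897 was lower on replicate 1, with -4.23 against -3.54, and A_86_P03683755 at chr8:25942073-25942131 had -3.45 and -4.31. In all, 7 of the 12 differed by more than 1 between the arrays, and all 7 were lower on replicate 2, so their depth is known with little precision. It also depended on the ratio, since with normexp background correction the means of the 12 probes were between -2.18 and -0.53.

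Since the rule used both levels, probes were also chosen by their level on one array and their level read on the other, which then entered the choice only through the requirement on its signals. The 9064 eligible probes below -1.5 on replicate 1 had a median level of -0.56 on replicate 2 (quartiles -1.29 and 0.08), whereas all eligible probes had a median of 0.01 there. Of these 9064 probes, 72% were below 0 on replicate 2, against 49.7% of all eligible probes, and 19.8% were below -1.5, against 9.18%. Conversely, the 15946 probes below -1.5 on replicate 2 had a median of -0.43 on replicate 1 (quartiles -0.997 and 0.08). Of them 71.2% were below 0 on replicate 1, against 50.7% of all eligible probes, and 11.3% were below -1.5, against 5.22%. A probe that was low on one array was thus low on the other more often than the typical probe, but in most cases it was not low there. The first statement held with each ratio compared here, although the shares moved, and the second depended on the ratio. With normexp background correction 3.92% of the probes low on replicate 1 were low on replicate 2, against 0.17% of all eligible probes, and 26.7% in the other direction, against 1.16%. Thresholds were also set so that normexp gave as many low probes on each array as above, an alternative chosen after seeing the data. Then 5862 probes were low on both, which are 64.7% of those low on replicate 1 and 36.8% of those low on replicate 2. Of these 5862 probes, 572 (9.76%) were members. The normexp ratio had no dye normalization, and a dye effect shared by the arrays cannot be told apart from a shared low level. With the signals before dye normalization, thresholds set in the same way left 2433 probes low on both, or 26.8% and 15.3%. With the signals before dye normalization the shares at -1.5 were 28.7%, against 10.1% of all eligible probes, and 18%, against 6.34%. With the trend on brightness removed from the levels the share low on replicate 2 was again 19.8%, against 9.41% of all eligible probes. With the signals required on the array of the choice only, an alternative chosen after seeing the data, 23% of 9467 probes low on replicate 1 were low on replicate 2, against 11.4% of all, and 11.8% of 16053 probes low on replicate 2 were low on replicate 1, against 5.89%. Both arrays carry a probe at the same place of the slide, so the probe, its place and the genomic position it reports cannot be told apart from these shares. A level above 1.5 on the other array was found for 110 probes (1.21%) chosen on replicate 1 and for 99 (0.621%) chosen on replicate 2.

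**Figure D2:**
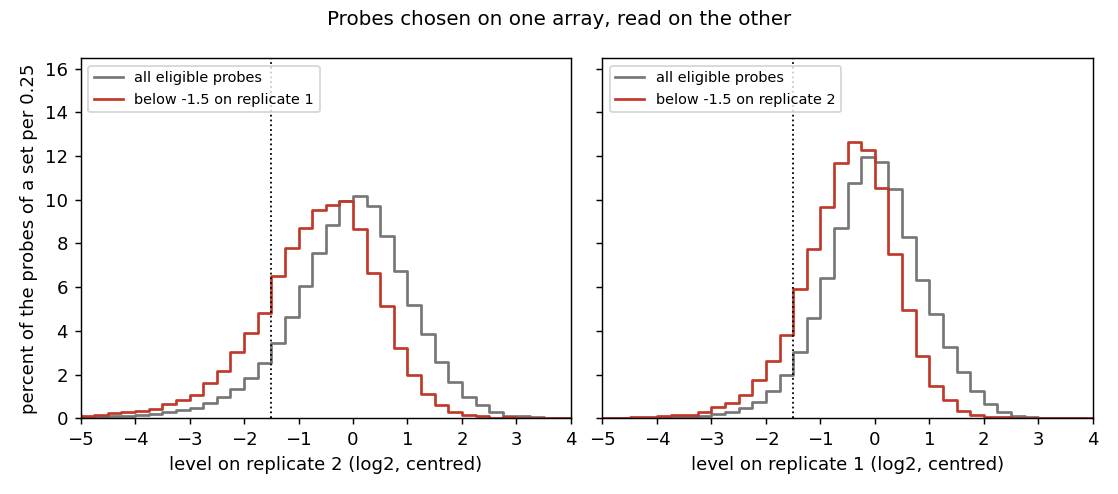
Levels on the array that was not used for the choice: probes below -1.5 on replicate 1 read on replicate 2 (left) and the reverse (right), in red, beside all eligible probes in grey; the vertical axis gives the percent of each set per 0.25 of level and the dotted line marks -1.5. The red distributions are shifted to medians of -0.56 and -0.43, and 19.8% and 11.3% of their probes lie left of the dotted line.

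The high end of the distribution was shared between the arrays to a larger extent. Of the probes above 1.5 on replicate 1, 85.8% were above 0 on replicate 2 and 32.7% were above 1.5, against 6.37% of all eligible probes. Of those above 1.5 on replicate 2, 83.4% were above 0 on replicate 1 and 23.1% were above 1.5, against 4.51%. By these shares the low end was the less repeatable one with the levels as defined here.

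The shares were also set against the brightness of the input. Among probes low on replicate 1, the share that was also low on replicate 2 was 15.4% in the dimmest of 4 equal bins of input brightness and 24.5% in the brightest. Of all eligible probes in the same ranges of input, 5.08% and 16.7% were low on replicate 2. Among probes low on replicate 2, the corresponding shares on replicate 1 were 11% and 11.8%, against 4.01% and 7.94% of all eligible probes. The share thus rose with brightness for the choice on replicate 1 and hardly for that on replicate 2, while that of all eligible probes rose in both cases. Within the same range of input, the difference between probes low on the other array and all eligible probes was thus smaller in the brightest bin than over the whole set. In the dimmest bin it was about as large as over the whole set for the choice on replicate 1, and larger for that on replicate 2. Brightness was alike only to the width of a bin, and its part in the difference was not tested further. The shares also moved with the depth of the level. Of the probes between -2 and -1.5 on replicate 1, 18.3% were low on replicate 2, while of the 91 probes below -4 there 31.9% were. For choices made on replicate 2, 790 of 7549 probes between -2 and -1.5 and 88 of 629 below -4 (14%) were low on replicate 1.

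Probes printed more than once give a second view of the same position. The eligible probes included 697 of these, of which 29 (4.16%) were low on replicate 1, 40 (5.74%) on replicate 2 and 3 (0.43%) on both. These shares are below the 5.22%, 9.18% and 1.03% of all eligible probes. The 3 low spots of A_86_P00457370, at chr1:177318180-177318239, had levels of -1.59, -1.58 and -1.54 on replicate 1 and -2.45, -2.40 and -2.55 on replicate 2. For A_86_P03879662, at chr8:92043711-92043770, the 2 spots kept had -1.62 and -1.51 on replicate 1 and -2.23 and -2.40 on replicate 2. For A_86_P06277512, at chr17:41777653-41777712, they had -2.13 and -3.05 on replicate 1 and -1.86 and -2.53 on replicate 2. The spots lay in separate places on the slide, and within an array each kept spot of these members was itself below -1.5. The mean over these kept spots is the level that the rule used, so their values are a description and no independent reading. A spot left out of A_86_P03879662 for an outlier flag had -1.46 and -2.504, and the one left out of A_86_P06277512 had -2.20 and -2.19.

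The surroundings of the low probes were then examined, as the rule made no use of them. The probes within 50 kb of a low probe, with the low probes left out, formed 17138 pairs over 15973 different probes. Their median level was -0.13 on replicate 1 and -0.07 on replicate 2. Around all eligible probes it was -0.06 and -0.01. Neighbours of low probes were thus slightly lower than other probes on both arrays, by a small part of the distance that separates the low probes themselves from the median. For the mean of both arrays the neighbours had a median of -0.14, against -0.08 around all eligible probes. It was -0.017 with normexp background correction. The median of all eligible probes themselves, not of the probes around them, was -0.0031 with normexp and -0.042 with the levels as defined above. The median of the neighbours of low probes was -0.076 without replicate 2 and 0.074 without replicate 1. In these last, every probe low on the remaining array is left out of the neighbours, and the other eligible probes had medians of 0.05 and 0.13. The share of single neighbours below -1.5 was 5.08% on replicate 1 and 9.08% on replicate 2, against 4.6% and 8.51% around all eligible probes.

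For 1687 of the low probes (94%) there were at least 3 eligible neighbours within 50 kb, with a median of 10. The mean over these neighbours had a median of -0.16 on replicate 1 and -0.11 on replicate 2, against -0.08 and -0.06 for all eligible probes. It was below 0 on both arrays for 834 low probes (49.4%), against 40.9% of the eligible probes, and above 0 on both for 326 (19.3%), against 26.8%. A mean below -0.5 on both arrays was found around 47 low probes (2.79%), against 2.51% for the eligible probes, and a mean below -1 on both around 3 of the 1687, against 81 of 158546. The share with a mean below -0.5 on both arrays was thus close to that of all eligible probes, while the share with a mean below 0 was higher.

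The 12 lowest members showed the same variety of surroundings. The mean over the neighbours within 50 kb was below 0 on both arrays for 5 of them, above 0 on both for 4, and of different sign for 3, over 2 to 15 neighbours each. The 4 neighbours of A_86_P00396812, the lowest member, had means of 0.09 on replicate 1 and 0.02 on replicate 2. For A_86_P01317749 the 10 neighbours had means of -0.70 and -1.52, and this member thus lay in a stretch that was low as a whole. For A_86_P00788272 there were only 2 neighbours, with means of 1.03 and 1.76, and the low probe stood beside probes with a high level.

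The shift of the neighbours was also followed with distance. At up to 5 kb from a low probe the median level of the other probes was -0.14 on replicate 1 and -0.09 on replicate 2, over 867 pairs, against -0.09 and -0.03 around all eligible probes. Between 5 and 10 kb it was -0.17 and -0.10, over 1754 pairs, against -0.07 and -0.02. Between 100 and 500 kb it was -0.10 and -0.04, against -0.04 and -0.0032. The neighbours of low probes were lower than those of eligible probes at each distance, by most between 5 and 10 kb, and the shift was still present beyond 100 kb. Whether it differs between distances was not tested. Around the high probes the medians were 0.11 and 0.17 at up to 5 kb and 0.14 and 0.09 between 100 and 500 kb.

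**Figure D3:**
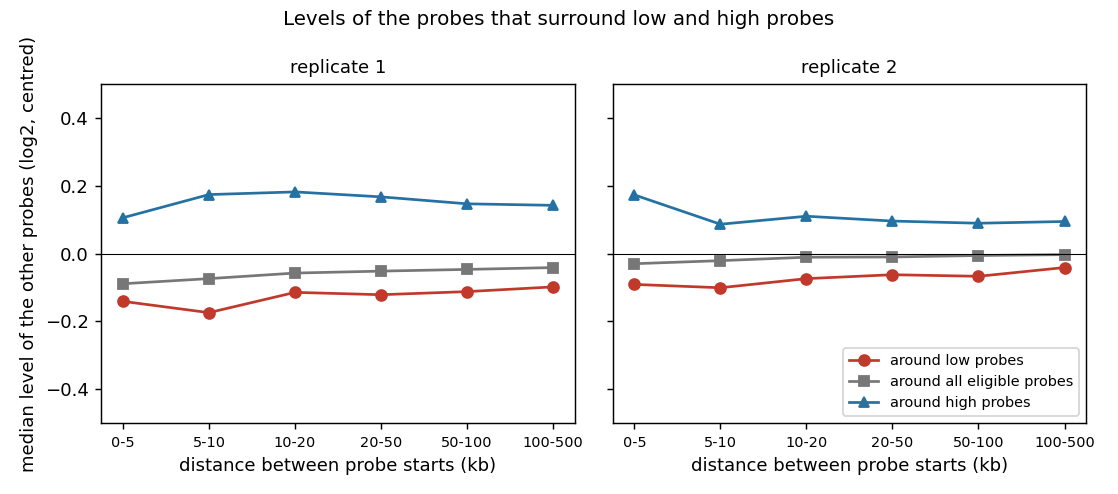
Median level of other eligible probes (log2(IP/input) minus the array median, vertical axis) by their distance in kb from low probes (red circles), all eligible probes (grey squares) and high probes (blue triangles), on replicate 1 (left) and replicate 2 (right); the probes of a set are left out of its own surroundings, and low probes out of those of all eligible probes. The red lines lie below the grey ones at each distance, from -0.14 and -0.09 at up to 5 kb to -0.10 and -0.04 between 100 and 500 kb.

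Low probes followed one another at a share close to that at which they followed other eligible probes. For 25 of them (1.39%) the next eligible probe along the chromosome was low too, close to the 1.03% for the other eligible probes. These 25 pairs held 50 low probes, the other 1744 stood alone, and no run of 3 or more was found. The median distance between one low probe and the next was 727044 bases, and 22 of 1774 distances were under 10 kb. The closest pair was A_86_P02891526 and A_86_P02891537, at chr6:25232541-25232600 and chr6:25235642-25235701, with starts 3101 bases apart. The first had levels of -1.58 and -1.90 on replicates 1 and 2, and the second -1.97 and -2.09. A pair on chromosome 19, A_86_P06767536 and A_86_P06767547, had starts 3187 bases apart and levels of -1.89 and -1.80 in the first and -2.39 and -3.79 in the second.

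On a larger scale, the chromosomes were divided into 2555 fragments of 1 Mb with at least 10 probes besides the low ones, and the mean level of the other probes was tested against 0 with limma. Without the low probes, 395 fragments (15.5%) were below 0 and 542 (21.2%) above 0 at an adjusted p under 0.05. At least 1 low probe was found in 1141 fragments, and of these 265 (23.2%) were below 0 and 74 (6.49%) above 0. Among the 1414 fragments with no low probe, 130 (9.19%) were below 0 and 468 (33.1%) above 0. Fragments that held low probes were thus more often depleted of 8-oxoG, as measured by their other probes, and seldom rich in it; this difference is a description and was not itself tested. With normexp background correction few fragments were called by limma, 53 below 0 and 2 above 0, and none of the 76 with a low probe was among them. At an unadjusted p under 0.05, 28 of these 76 (36.8%) and 713 of the 2479 others (28.8%) were below 0. The median level of the other probes was -0.12 on replicate 1 and -0.15 on replicate 2 in fragments with a low probe, and 0.15 and 0.02 in those without. The share of fragments below 0 rose with the number of low probes, from 19.3% of 703 fragments with 1 low probe to 27% of 282 with 2 and 34% of 156 with 3 or more. The share above 0 fell from 8.96% to 3.19% and 1.28%.

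Fragments with low probes also had more probes. The median number of eligible probes was 80 per fragment with a low probe and 51 per fragment without. Counted per probe, 1.45% of the eligible probes in fragments below 0 were low (471 of 32444), 1.06% in fragments not called (1235 of 116402) and 0.356% in fragments above 0 (88 of 24750). The median input signal on replicate 1 was 157, 136 and 83.8 in these classes, in the same order. Within each of 4 equal bins of input brightness the order was unchanged. In the brightest bin the shares were 2.2%, 1.88% and 0.961%, and in the dimmest 0.196%, 0.17% and 0.052%. In the bins between them the shares were 1.09%, 0.762% and 0.279%, and 1.84%, 1.36% and 0.573%. The part of input brightness in the remaining difference was not tested beyond these bins.

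**Figure D4:**
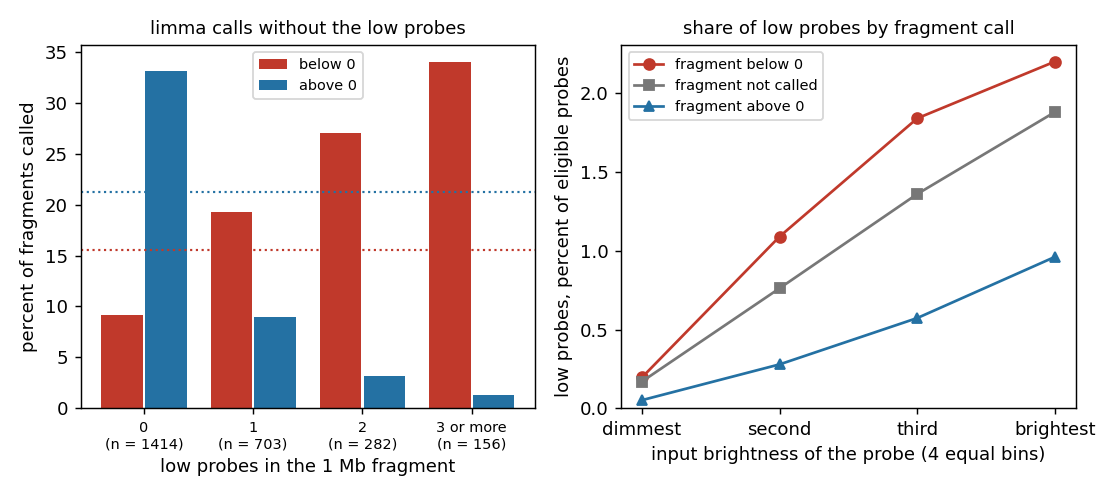
Left: percent of 1 Mb fragments called below 0 (red) or above 0 (blue) by limma from their other probes, by the number of low probes they hold, with dotted lines at the 15.5% and 21.2% of all 2555 fragments. Right: low probes as a percent of the eligible probes in 4 equal bins of input brightness for fragments called below 0, not called or called above 0; in each bin the share is highest in fragments below 0 and lowest in those above 0.

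The fragments with the most low probes were looked at singly. The count reached 8 low probes of 84 eligible ones (9.52%) in chr3:89000001-90000000. Its other probes had mean levels of -0.0022 on replicate 1 and -0.08 on replicate 2, and the fragment did not pass the test (limma, adjusted p = 0.742, mean -0.04, SE 0.0903). The low probes there had levels from -3.09 to -1.67 on replicate 1 and from -3.18 to -1.65 on replicate 2. A_86_P01628741 was the lowest of them by its mean, with -3.09 and -2.81 and IP signals of 21.3 and 21.4, whereas A_86_P01627087 had -1.84 and -1.71 at IP signals of 163 and 145. A_86_P01628062 and A_86_P01628101 were next to each other, 11131 bases apart, with -2.08 and -3.18 in the first and -2.60 and -2.43 in the second.

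A further 9 fragments held 5 low probes, 36 held 4 and 110 held 3. Of those with 5, the 4 with the largest share of low probes are described. Among them, chr20:17000001-18000000 came first (5 of 43, 11.6%), with other probes at -0.03 and -0.09 (limma, adjusted p = 0.607). In chr16:79000001-80000000 the other probes were at -0.26 and -0.10 (adjusted p = 0.128) and in chr12:33000001-34000000 at -0.21 on each array (adjusted p = 0.0808). The fragment chr14:86000001-87000000 was the only one of these 5 fragments to pass the test, with other probes at -0.33 and -0.26 (mean -0.30, SE 0.0903, limma, adjusted p = 0.0244). Its 5 low probes had levels from -2.20 to -1.75 on replicate 1 and from -2.09 to -1.57 on replicate 2, a narrow range close to the threshold. In the chromosome 16 fragment the low probes ranged from -2.80 to -1.51 and from -3.04 to -1.85.

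The low probes were spread over all 20 chromosomes. Their share of the eligible probes was lowest on chromosome 15 (61 of 6868, 0.888%) and chromosome 17 (58 of 6529, 0.888%). It was highest on chromosome 16 (70 of 5862, 1.19%) and chromosome 10 (113 of 9511, 1.19%). The range was narrow, and far narrower than that of the high probes, whose share was 0.438% on chromosome 12 and 2.12% on chromosome 2. On chromosome 12, whose eligible probes had a median level of -0.20 on replicate 1 and -0.04 on replicate 2, the share of low probes was 0.931% and thus below that of the whole set of eligible probes. Chromosome 10, with medians of -0.15 and -0.07, was also low in general and had one of the highest shares.

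**Figure D5:**
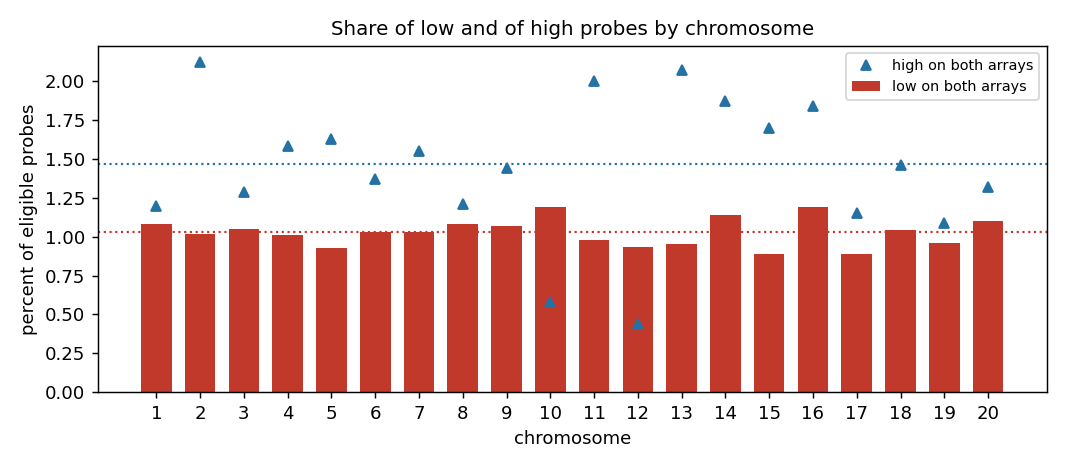
Low probes (red bars) and high probes (blue triangles) as a percent of the eligible probes of each chromosome; dotted lines mark the shares over all chromosomes, 1.03% and 1.47%. Low probes range from 0.888% to 1.19%, high probes from 0.438% to 2.12%.

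Position along the chromosome differed little. The median distance from a low probe to the nearer of its adjacent probes was 5691 bases, against 6059 for the eligible probes. Gaps of more than 100 kb bordered 4 low probes (0.223%), against 0.457% of the eligible probes. The first 3 Mb of the chromosomes held 48 low probes (2.68%, against 2.91% of the eligible probes) and the last 3 Mb held 70 (3.9%, against 3.48%). The low probes were thus not gathered at chromosome ends or beside gaps of the array.

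Of the probe features, length and input brightness went along with the number of low probes. Most probes of the array are 60 bases long, and 1648 of 154958 such eligible probes were low (1.06%). Of the probes of 45 to 49 bases none of 1476 was low, and of those of 50 to 54 bases 11 were (0.459%). The short probes also had higher levels as a whole, with medians of 0.25 on replicate 1 and 0.36 on replicate 2 at 45 to 49 bases, against -0.01 and -0.0014 at 60 bases. The share of high probes was lower among the short probes too, with 0.678% at 45 to 49 bases and 0.71% at 50 to 54, against 1.54% at 60 bases. Probes of 60 bases made up 91.9% of the low probes and 89.2% of the eligible ones, so length set few members apart.

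By 10 equal bins of input brightness the share of low probes went from 0 in the dimmest bin to 394 probes (2.27%) in the brightest. The level of all probes moved with brightness too, from medians of 0.53 on replicate 1 and 0.71 on replicate 2 in the dimmest bin to -0.38 and -0.58 in the brightest. By bins of IP brightness the share went the other way, from 589 probes (3.39%) in the dimmest bin to 5 (0.0288%) in the brightest. Input and IP are the terms of the level, and a dim input leaves little room for an IP that is lower still and yet well above background, so these shares are not independent of the rule.

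The share of low probes differed with the place on the slide, over a wider range across the columns than between chromosomes. From one side of the slide to the other, the share of low probes in sixths of the columns was 1.27%, 1.22%, 0.968%, 0.961%, 0.942% and 0.856%, and in sixths of the rows it lay between 0.892% and 1.18%. In the first sixth of the columns the median level of all eligible probes was -0.12 on replicate 1 and -0.07 on replicate 2, and in the last it was 0.03 and 0.02. With each sixth of the columns centred on its own median, an alternative chosen after seeing the data, 1792 probes were low and 1715 of them were members of the original set.

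Which probes were low depended on how the ratio was formed. The ratios compared come from the same spots that chose the members, so the values are a description. With normexp background correction the members had median levels of -0.57 on replicate 1 and -0.20 on replicate 2, and 34 of them were below -1.5 on both arrays. That ratio adds an offset of 50 to each channel and has no dye normalization. The median processed IP signal of the members was 55.3 on replicate 1 and 38.8 on replicate 2. An offset of this size draws the ratios of dim spots toward 1, so these values follow in part from the offset. With the signals before dye normalization, 1445 of the members were below -1.5 on both arrays, at median levels of -2.01 and -2.16. With the trend on brightness removed from the levels, 1689 were. Of the 79 probes below -1.5 on both arrays with normexp, 34 were members.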

How the data were processed

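8-oxoG was measured as IP over input DNA on 2 Agilent Rat Genome CGH arrays, 1 per rat. The authors deposited intensity values of both channels for each spot, computed with Feature Extraction 10.5.1.1 (background subtracted, spatial trend removed, dyes matched by lowess), along with log10 ratios and the intensities before dye normalization. The log2 table that the authors deposited equals log2 of processed IP over input intensity within 6.2e-15 and has medians of 0.0125 and 0.0625, so it is not centred. Levels were computed as defined above from 237974 spots, of which 305 carried an outlier flag, with no loess or quantile step. The normexp alternative (offset 50) was applied to median signals, as mean signals were not used here. It had no dye normalization and no removal of the spatial trend, so it differs from the levels above in several steps at once. Fragments were tested by limma 3.58.1 in R 4.3.3 (intercept, lmFit and eBayes, two-sided, Benjamini-Hochberg over 2555 fragments), with 1 residual degree of freedom and the spread pooled over fragments; the procedure was checked on simulated data. Other steps used Python 3.11.15, numpy 2.4.6, pandas 2.3.3, scipy 1.17.1 and matplotlib 3.10.9. Members and lists were chosen with earlier results of these data known. Named are the 12 members with the lowest mean, the 3 probes nearest each side of the threshold, the 5 fragments with the most members (ties by share of eligible probes), the members printed more than once, and the chromosomes with the highest and lowest share. Others, such as the adjacent pairs and chromosomes 2 and 12, were picked after their values were seen. Gene names and sequences of the probes were not used here, and without them the planned counts by gene were not run. The number of arrays, 2, limits how precise any level can be.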

Additional observations from a re-analysis of the deposited data

Results flagged for a closer look

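Probes below -1.5 on both arrays and well above background in both channels were also found on sequence outside chromosomes 1 to 20, which the definition of the set leaves out. On chromosome X there were 114 of 7058 eligible probes (1.62%), with median levels of -1.95 on replicate 1 and -2.28 on replicate 2. Of 11306 probes on X, 7058 met the requirement on the signals, against 173675 of 219941 on chromosomes 1 to 20. The rats were male, and the bearing of this on the signals from X was not tested. On unplaced or randomly placed sequence there were 28 of 3673 (0.762%), with median levels of -1.93 and -2.06. Both are singled out because they are signal in data that the comparisons above did not use, and there was no control sample to set them against. The difference in share from chromosomes 1 to 20 was not tested.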

How the results depend on the processing

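The set of 1794 low probes stayed within 1.5 times its size with the log10 ratio of the scanner software (1670), without centring (1629), with outlier flags kept (1794) and with the trend on brightness removed (1828). It moved to 79 with normexp, 3162 before dye normalization, 3151 without a filter on signals, 3007 with the filter on input only, 3626 with the threshold raised by 0.25 and 463 at -2. Among alternatives chosen after seeing the data it was 996 below the 5th percentile of each array and 650 with an IP signal of at least 50. With as many probes low per array as above, it was 5862 with normexp, sharing 572 probes with the set (31.9% of it and 9.76% of the 5862), and 2433 before dye normalization, sharing 1332. Without each replicate in turn it was 9467 to 16053, as a single array then decides. Low probes next to another numbered 88 with the raised threshold, 2 at -2, 0 with normexp, 79 before dye normalization and 577 to 1577 without each replicate. As a share of the low probes this was 2.43% with the raised threshold, against 2.09% of eligible probes that were low. It was 0.432% against 0.267% at -2 and 2.5% against 1.82% before dye normalization. Without replicates 2 and 1 it was 6.09% against 5.12% and 9.82% against 9.03%. The median level of the neighbours, -0.14 for the mean of both arrays, was -0.017 with normexp, -0.098 without centring, and -0.076 and 0.074 without replicates 2 and 1; in these last, all probes low on the array were left out by construction, and the other eligible probes had medians of 0.05 and 0.13. It moved by less than the SD between arrays with the next probe on each side, with all probes, before dye normalization and within 500 kb. Fragments below 0 went from 395 to 53 with normexp and to 602 with the low probes kept, and those with a low probe from 265 to 0 and 423; with the low probes kept, fragments without a low probe went from 130 to 179 as well. By limma with normexp, 76 fragments held a low probe, and 28 of them were below 0 at an unadjusted p under 0.05, as were 713 of the 2479 others. The cause of these changes was not tested. Other fragment settings gave 325 to 438 and 220 to 350. Under settings picked for it after seeing the data, the share of probes low on replicate 1 that were low on replicate 2 (19.8%) was 18.9% with the log10 ratio, 3.92% with normexp, 28.7% before dye normalization, 18.4% without centring and 23% with signals required on replicate 1 only; the share in the other direction (11.3%) was 26.7%, 18% and 11.8% with normexp, before dye normalization and with signals required on replicate 2 only. The shares of all eligible probes moved as well, to 0.17% on replicate 2 and 1.16% on replicate 1 with normexp. The 12 lowest probes had means of -2.18 to -0.53 with normexp. Not run were the counts by gene name and gene list with their alternatives, and limma without a replicate, which has no residual degrees of freedom. No paired analysis was possible because both arrays belong to a single group, normal kidney. The signal over background limits the level of dim probes, as IP signals near 9 were the weakest kept. The sizes of the limits were not compared.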
